A study of Mus musculus with 8 samples.

Results

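The transcripts of 10 cytokine receptor chains were followed in mouse cells sorted as eosinophils. Il4ra, Il13ra1 and Il2rg build the receptors for interleukin (IL) 4 and IL-13, Il6ra and Il6st that for IL-6, and Il10ra and Il10rb that for IL-10. Ifngr1 and Ifngr2 form the receptor for interferon gamma, and Il17ra is a shared chain of the IL-17 receptors. They were chosen by gene symbol, and all 10 of the 10 symbols were found once among the 38392 genes measured. Eosinophils are granulocytes made in the marrow that later settle in tissues such as the gut wall, and here they came from female wildtype C57/BL6 mice, with 4 RNA libraries per tissue (bone marrow and small intestine). Neither group carried a transgene or received a treatment, and the labels give no age, the study's methods stating only a range for the young adult mice of all its experiments. Bone marrow cells were sorted as CD11b+Ly6G-Ly6C-SiglecF+SSChi and intestinal cells as CD11b+MHC-II-SiglecF+SSChi. Only the intestinal tissue was stripped of epithelium, digested with enzymes at body temperature and enriched on CD11b beads, so tissue and handling cannot be told apart. Libraries carry the names of their table columns, with BM for bone marrow (BM_1, BM_3, BM_4, BM_5) and SI for small intestine (SI_6, SI_7, SI_10, SI_11), because the column numbers match no single sample title. Nothing in the labels ties a library to a batch or day, and p-values measure the spread between these libraries.

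The receptors described here have no enzyme of their own, with signals passed by Janus kinases bound to the chains and by STAT transcription factors, except Il17ra, which signals through an adaptor. IL-4 binds the IL-4 receptor alpha chain, Il4ra, which then recruits either the common gamma chain Il2rg (type I receptor) or Il13ra1 (type II receptor), and only the type II receptor also binds IL-13. IL-6 binds Il6ra, which does not signal by itself and recruits the shared subunit gp130, encoded by Il6st. IL-10 binds Il10ra and signals with Il10rb, a chain that is also part of the IL-22 and lambda interferon receptors. Interferon gamma binds Ifngr1, and Ifngr2 completes the receptor. Il17ra pairs with other chains of its family, among them Il17rc for IL-17A and IL-17F. In eosinophils IL-4 and IL-13 signalling is known for its part in type 2 immunity.

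The 5 chains of the IL-4, IL-13 and IL-6 receptors belong to the class I cytokine receptors, whose extracellular part carries a short signature of tryptophan and serine residues. The codons of this signature are shown because they divide the 10 chains by structure. A search for tryptophan, serine, any residue, tryptophan and serine in the longest coding sequence of each gene (GENCODE M21, build GRCm38) found the signature once in each of these 5 chains. It was not found in Il10ra, Il10rb, Ifngr1 and Ifngr2, which are class II receptors, or in Il17ra, which belongs to a family of its own. The coding strand is printed 5′ to 3′, with the 15 bases of the signature in capitals and 6 coding bases on each side:
Il4ra: ggcaccTGGAGTGAGTGGAGTcctagc
Il13ra1: aaactgTGGAGTGATTGGAGTgaagca
Il2rg: caacagTGGAGTAAATGGAGCcagcct
Il6ra: ggccagTGGAGCGAATGGTCCccagag
Il6st: ggctacTGGAGTGACTGGAGTgaggag
The capitals of Il4ra lie at chr7:125571554-125571568 on the plus strand, in exon 7 of the 11 exons of the transcript. Those of Il13ra1 lie at chrX:36149081-36149095 on the plus strand, in exon 8 of 11. Those of Il2rg lie at chrX:101266215-101266229 on the minus strand, in exon 5 of 8. Those of Il6ra lie at chr3:89885930-89885944 on the minus strand, in exon 6 of 10, and those of Il6st at chr13:112490597-112490611 on the plus strand, in exon 6 of 15. None of the 5 signatures was split by an intron.

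All 10 genes are protein-coding. On chromosome 16, Il10rb (chr16:91406164-91425834) and Ifngr2 (chr16:91547072-91565623) lie near each other on the plus strand. Il4ra spans chr7:125552120-125579474, Il13ra1 chrX:36112110-36171259, Il2rg chrX:101264378-101268255, Il6ra chr3:89864059-89913196, Il6st chr13:112464070-112510086, Il10ra chr9:45253837-45269149, Ifngr1 chr10:19591949-19610229 and Il17ra chr6:120463247-120487559.

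The libraries held 11508002 to 21289164 reads in genes, recovered from the deposited values. In bone marrow the 12 eosinophil markers summed to 2841 to 4901 normalised counts per library, whereas 12 genes of neutrophil precursors, cells of a related lineage, summed to 490335 to 633354. The eosinophil markers split, with 6 of the 12 higher in the intestine, 5 lower and 1 not called. The granule protein gene Prg2 had a marrow mean of 1831 and an intestinal mean of 147. For the eosinophil chemokine receptor Ccr3 these means were 70.9 and 16351. Mpo, the myeloperoxidase of neutrophil granules, averaged 149860 normalised counts in bone marrow. The bone marrow libraries are therefore described by their sort gate and not as eosinophils of known purity. In small intestine the eosinophil list summed to 46007 to 61872 and the neutrophil precursor list to 796 to 1074, while the epithelial markers, all 12 of them higher there, summed to 7140 to 52564 against 260 to 548 in the marrow. Summed macrophage and dendritic cell markers ranged from 903 to 1116 in bone marrow and from 16841 to 23088 in small intestine, of which Itgax, the integrin CD11c, held a mean of 14221. B and plasma cell markers summed to 328 to 578 in the marrow and 4080 to 26439 in the intestine, where Igha, the IgA heavy chain, averaged 13597. Endothelial markers went from between 391 and 502 to between 7547 and 9871, with Pecam1 at a mean of 8162, and fibroblast and smooth muscle markers from between 82.0 and 214 to between 825 and 2280. T cell, NK cell and ILC markers summed to 68.5 to 125 and to 197 to 247. The part of these shifts in the differences of the receptor chains was not tested. The 12 genes of a cell dissociation response summed to 966 to 1344 in bone marrow and to 87065 to 114146 in small intestine, and all 12 of 12 passed the test as higher. No marker of any list was at 0 in every bone marrow library.

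Of the 10 receptor chains, 7 were higher in the small intestine, 2 were lower and 1 did not pass the test. Il10ra, Il13ra1, Il10rb, Il2rg, Ifngr2, Il6st and Il4ra rose, Il6ra and Il17ra fell, and Ifngr1 was not called. The test was limma on the deposited log2-like values of all genes, with the Benjamini-Hochberg adjustment over all genes and a threshold of 0.05. By the same rule 22.0% of all genes were called higher and 12.9% lower. A mean of 10 reads or more was reached by 16215 genes, all 10 chains included, and among these 34.6% were higher and 28.6% lower. The median difference, small intestine minus bone marrow, was 1.45 on the log2 scale over the 10 chains, 0.37 over all genes and 0.12 over the genes at 10 reads or more. The groups did not overlap for 9 of the 10 chains, compared with 34.3% of all genes. That share was not computed for the genes at 10 reads or more, among which calls were more frequent. Normalised counts below are reads divided by the size factor of the library. In these bulk samples a change in the number of cells of a type cannot be told apart from a change in RNA per cell.

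**Figure D1:**
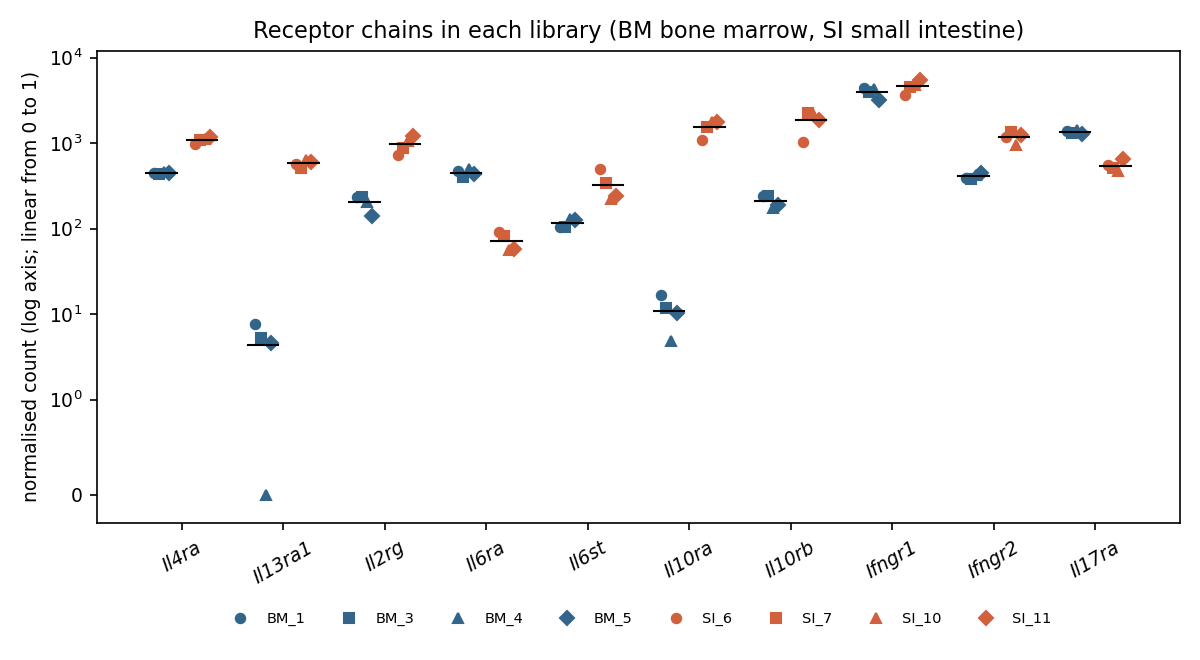
Normalised counts (y axis, logarithmic above 1) of the 10 receptor chains (x axis) in each of the 8 libraries, with bone marrow in blue, small intestine in orange and black bars at the means (n = 4). Il13ra1 and Il10ra lay between 0 and 16.9 in bone marrow and at 516 or more in small intestine, while the points of Ifngr1 overlapped.

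The IL-4 and IL-13 receptor chains rose together, with the largest change in the chain that makes the receptor able to bind IL-13. Il13ra1 had 7.66, 5.22, 0 and 4.65 normalised counts in BM_1, BM_3, BM_4 and BM_5, from 10, 8, 0 and 5 reads. In SI_6, SI_7, SI_10 and SI_11 it had 575, 516, 627 and 599. The gene was near the detection limit in every bone marrow library and steady across the intestinal ones, at 4.38 ± 3.20 against 579 ± 47.1 (SD, n = 4). The difference was 6.55 ± 0.51 on the log2 scale (SE, limma adjusted p = 2.87e-05), a ratio of means of 132.

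Il4ra, the chain shared by both IL-4 receptors, was already present in bone marrow, at 443, 435, 455 and 447 normalised counts. The intestinal libraries held 966, 1089, 1120.2 and 1192. The bone marrow values were tight, with an SD of 8.18 around 445, and every intestinal value was more than any of them. The difference of 1.28 ± 0.17 (SE, limma adjusted p = 0.000481) was a 2.45-fold rise in the mean. It was 0.38 and not called when each library was centred on its median over all genes.

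Il2rg, the common gamma chain that also serves the receptors for IL-2, IL-7, IL-9, IL-15 and IL-21, had 235, 235, 205 and 139 normalised counts in bone marrow. It had 718, 868, 1063 and 1198 in small intestine. The lowest bone marrow value was in BM_5 and the lowest intestinal value in SI_6, and the groups stayed apart. The means were 203 ± 45.5 and 962 ± 212 (SD, n = 4), a 4.73-fold rise (log2 difference 2.22 ± 0.26 SE, limma adjusted p = 0.000243).

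Both chains of the IL-10 receptor rose, the ligand-binding chain from near the detection limit. Il10ra had 16.9, 11.7, 4.78 and 10.2 normalised counts in bone marrow. It had 1072, 1523, 1783 and 1769.6 in small intestine. The chain that binds IL-10 was thus low in each bone marrow library and abundant in each intestinal one, with SI_6 lowest. The difference was 6.78 ± 0.32 (SE, limma adjusted p = 2.2e-06), a ratio of means of 141.

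Il10rb, the signalling partner, had 239.8, 238, 174 and 187 normalised counts in bone marrow. In small intestine it had 1041, 2258, 2174 and 1876. SI_6 was well below the other intestinal libraries but above every bone marrow value. The mean rose 8.76-fold, from 209.7 ± 34.1 to 1837 ± 555 (SD, n = 4), and the log2 difference was 3.06 ± 0.29 (SE, limma adjusted p = 7.67e-05). Without SI_6 the difference of Il10rb was 3.31, the highest of the values obtained when each library was left out in turn.

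The chains of the interferon gamma receptor differed from each other. Ifngr1, the ligand-binding chain, had 4439, 3902, 4328 and 3207 normalised counts in bone marrow and 3639, 4517, 4763 and 5502 in small intestine. It was high in all 8 libraries, and the groups overlapped. The difference was 0.21 ± 0.21 (SE) with a 95% interval from -0.27 to 0.69, and limma gave an adjusted p of 0.476. Ifngr1 passed under none of the 14 other settings, and its difference was -0.69 when libraries were centred on the median of all genes and -0.31 after quantile normalisation.

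Ifngr2, which brings the kinase Jak2 into the complex, had 388.5, 381.5, 422 and 442.5 normalised counts in bone marrow. It had 1188, 1347, 957 and 1226 in small intestine. SI_10 was the lowest intestinal library here, unlike for the chains above, and still held more than any bone marrow library. The mean rose 2.89-fold, from 409 ± 28.7 to 1179 ± 163 (SD, n = 4), with a log2 difference of 1.51 ± 0.19 (SE, limma adjusted p = 0.000346). Centring on the median of all genes gave 0.61, which was not called.

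The 2 chains of the IL-6 receptor moved in opposite directions. Il6ra, which binds IL-6, had 469, 399.8, 492 and 431 normalised counts in bone marrow. It had 90.6, 81.8, 56.9 and 58.1 in small intestine. Every intestinal value was below every bone marrow value, and the mean was 6.24-fold higher in bone marrow. The difference was -2.60 ± 0.22 (SE, limma adjusted p = 3.98e-05).

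Il6st, which encodes gp130 and also serves IL-11, leukaemia inhibitory factor and oncostatin M, had 103, 104, 130.1 and 125.5 normalised counts in bone marrow. It had 493, 338, 223 and 241 in small intestine. The intestinal libraries differed more among themselves than the bone marrow libraries did, with SI_6 highest. The mean rose 2.80-fold, from 116 ± 14.1 to 324 ± 124 (SD, n = 4), with a log2 difference of 1.39 ± 0.28 (SE, limma adjusted p = 0.00471). Leaving out single libraries gave 1.17 to 1.54, and centring on the median of all genes gave 0.49, which was not called.

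Il17ra, the receptor chain common to IL-17A, IL-17C, IL-17F and IL-25, fell. It had 1369, 1298, 1409 and 1283 normalised counts in bone marrow and 548, 516, 466 and 651 in small intestine. The groups were far apart relative to their spread, with SDs of 59.4 and 78.0. The mean was 2.46-fold higher in bone marrow, and the difference was -1.30 ± 0.18 (SE, limma adjusted p = 0.000691). The neutrophil precursor list, with 11 of its 12 genes lower in small intestine, was higher in the same libraries as Il6ra and Il17ra, and its part in these differences was not tested.

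**Figure D2:**
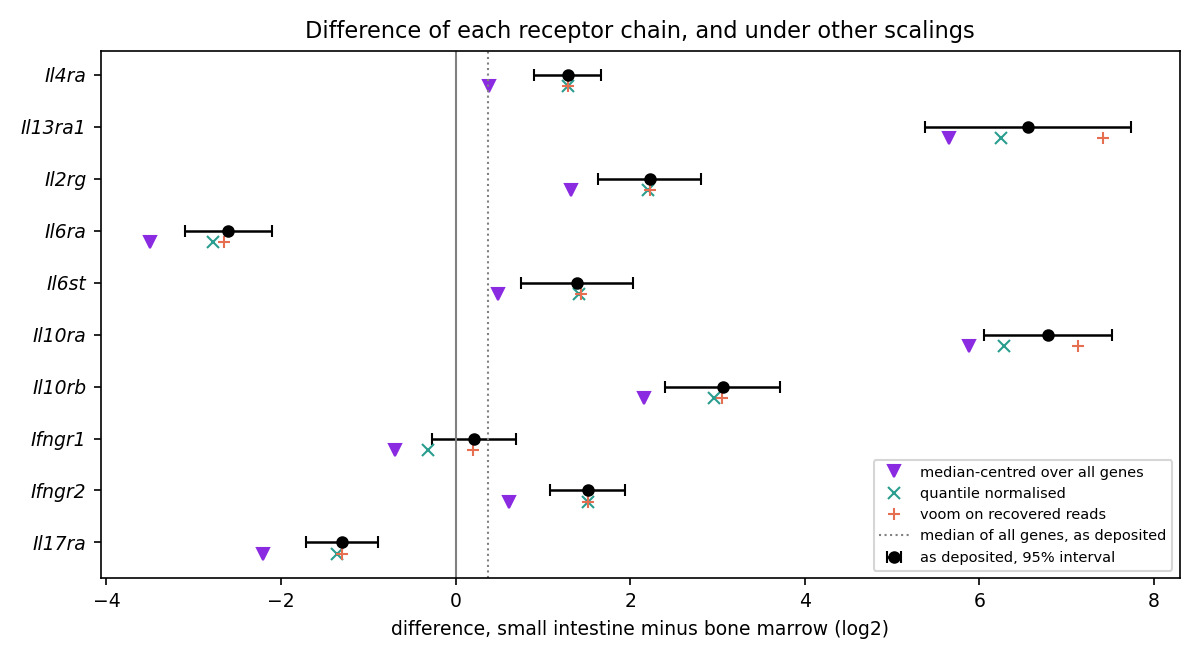
Difference of each receptor chain (x axis, log2, small intestine minus bone marrow) with its 95% interval from limma in black, and under 3 other scalings or fits in colour. Centring on the median of all genes moved every chain to the left and Ifngr1 to -0.69, and the dotted line marks the median of all genes, 0.37.

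The order of the chains was compared as normalised counts per kb of annotated exon sequence, since the genes differ in length. In bone marrow Ifngr1 led with 1394 ± 196 normalised counts per kb (SD, n = 4). Il17ra at 155, Ifngr2 at 108 and Il2rg at 85.2 came next, and Il2rg overlapped with Il4ra at 74.1. Il10rb at 55.1 and Il6ra at 51.8 overlapped with each other, Il6st stood at 10.4, and Il10ra at 3.12 overlapped with Il13ra1 at 1.18.

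In small intestine Ifngr1 again led, with 1618 ± 269.8 normalised counts per kb. Il10rb at 482, Il10ra at 439, Il2rg at 403 and Ifngr2 at 313 followed, and among these each overlapped with its neighbour, while Ifngr2 did not overlap with Il4ra. Il4ra at 182 overlapped with Il13ra1 at 156, and Il17ra at 62.9, Il6st at 29.2 and Il6ra at 8.31 came last. Il10ra thus moved from ninth to the third place and Il17ra from the second to eighth. The length of the longest transcript in place of all exons left 8 of the 10 chains in the same place in each tissue. In small intestine it put Il2rg, at 576, before Il10ra, at 439, and their values overlapped under both lengths.

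The balance of chains that share a receptor or compete for a partner was measured inside each library. There scaling between libraries cancels, except at low counts, where the deposited values are not logarithmic. The ligand-binding and signalling chains of IL-6 changed places. Il6ra minus Il6st was 2.14, 1.91, 1.89 and 1.75 on the log2 scale in BM_1, BM_3, BM_4 and BM_5, and between -2.40 (SI_6) and -1.90 (SI_10) in the intestinal libraries. Per kb of exon, Il6ra had 4.97 times the mean level of Il6st in bone marrow, and Il6st had 3.51 times that of Il6ra in small intestine.

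For IL-10 the chains came close to equal levels. Il10ra minus Il10rb was -3.57, -3.98, -4.45 and -3.79 in bone marrow and 0.04, -0.57, -0.29 and -0.08 in small intestine. Per kb, Il10rb exceeded Il10ra 17.7-fold in bone marrow and 1.10-fold in small intestine.

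The partners of Il4ra also drew together. Il2rg minus Il13ra1 was 4.42, 4.79, 6.77 and 4.15 in bone marrow and 0.32, 0.75, 0.76 and 0.997 in small intestine. Per kb, the common gamma chain exceeded Il13ra1 72.2-fold in bone marrow, where Il13ra1 rested on few reads, and 2.58-fold in small intestine. Il4ra minus Il2rg fell by a smaller amount, from 1.15 ± 0.36 to 0.20 ± 0.20 (SD, n = 4).

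Ifngr1 minus Ifngr2 was 3.50, 3.34, 3.35 and 2.85 in bone marrow and 1.61, 1.74, 2.31 and 2.16 in small intestine, so Ifngr1 stayed above its partner in all 8 libraries. Per kb Ifngr1 exceeded Ifngr2 12.9-fold in the marrow and 5.17-fold in the intestine. Il17ra minus Il17rc went from 8.57 ± 1.13 to 3.36 ± 1.10. Il17rc had 0, 5.22, 0 and 1.86 normalised counts in bone marrow and 147, 41.6, 37.2 and 24.9 in small intestine. SI_6, with the highest Il17rc, also had the highest epithelial marker sum.

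For each of the 6 pairs the groups did not overlap, and the exact 2-sided permutation test over the 70 assignments of libraries to groups gave p = 0.0286, the smallest value it can give with 4 against 4. The Benjamini-Hochberg adjusted p over the 6 pairs was also 0.0286. Taking the logarithm of the recovered reads in place of the deposited values changed no direction. It moved the change between tissues from -4.33 to -5.24 for Il2rg minus Il13ra1 and from -5.22 to -6.63 for Il17ra minus Il17rc.

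**Figure D3:**
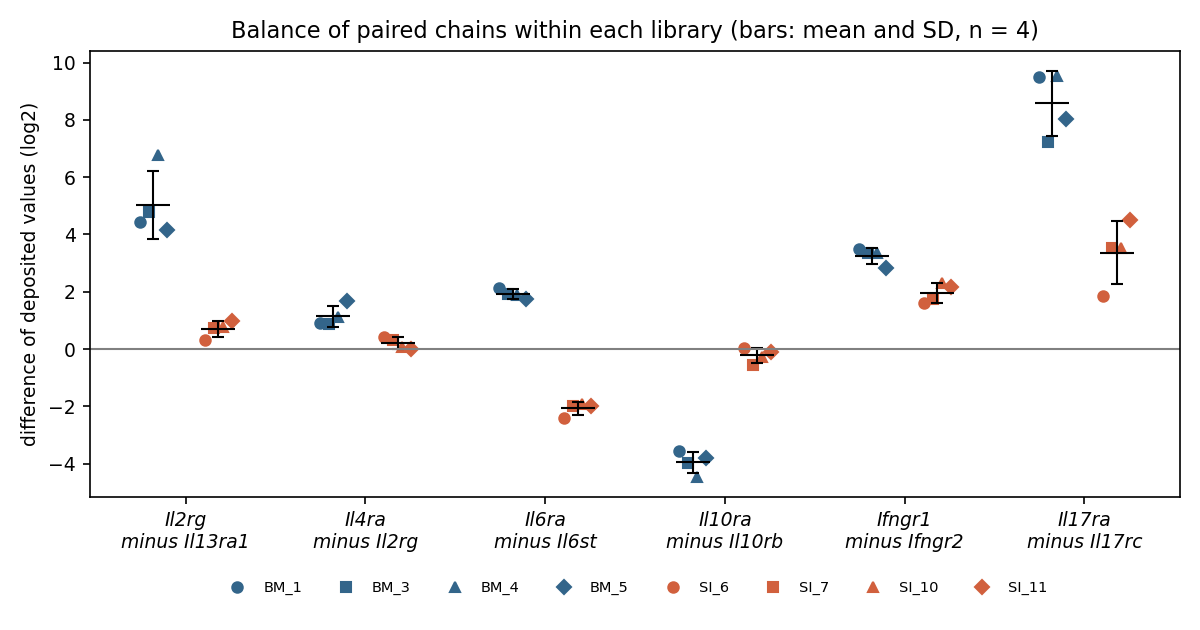
Difference between paired chains in each library (y axis, log2, deposited values) for 6 pairs (x axis), with bone marrow in blue, small intestine in orange and bars for the mean and SD (n = 4). Il6ra minus Il6st lay between 1.75 and 2.14 in bone marrow and between -2.40 and -1.90 in small intestine, on opposite sides of 0.

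Among the intestinal libraries the chains did not vary as one group. Relative to the mean of the 4 intestinal libraries, SI_6 was low for Il10rb (-0.82 on the log2 scale), Il10ra (-0.52), Il2rg (-0.42), Ifngr1 (-0.34) and Il4ra (-0.18). It was high for Il6st (0.61) and Il6ra (0.33), and near the mean for Il13ra1, Ifngr2 and Il17ra. In the same library the summed epithelial markers were at 1.19, those of B and plasma cells at 0.79 and the eosinophil markers at -0.24. SI_7, SI_10 and SI_11 had epithelial sums of 23876, 7140 and 8669 normalised counts, against 52564 in SI_6. Without SI_6 the difference of Il6st was 1.17 and still called. The epithelial sums of the remaining intestinal libraries were also above those of the marrow, at 260 to 548. The part of epithelial RNA in the values of Il6st, Il6ra and Il17rc was not tested.

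**Figure D4:**
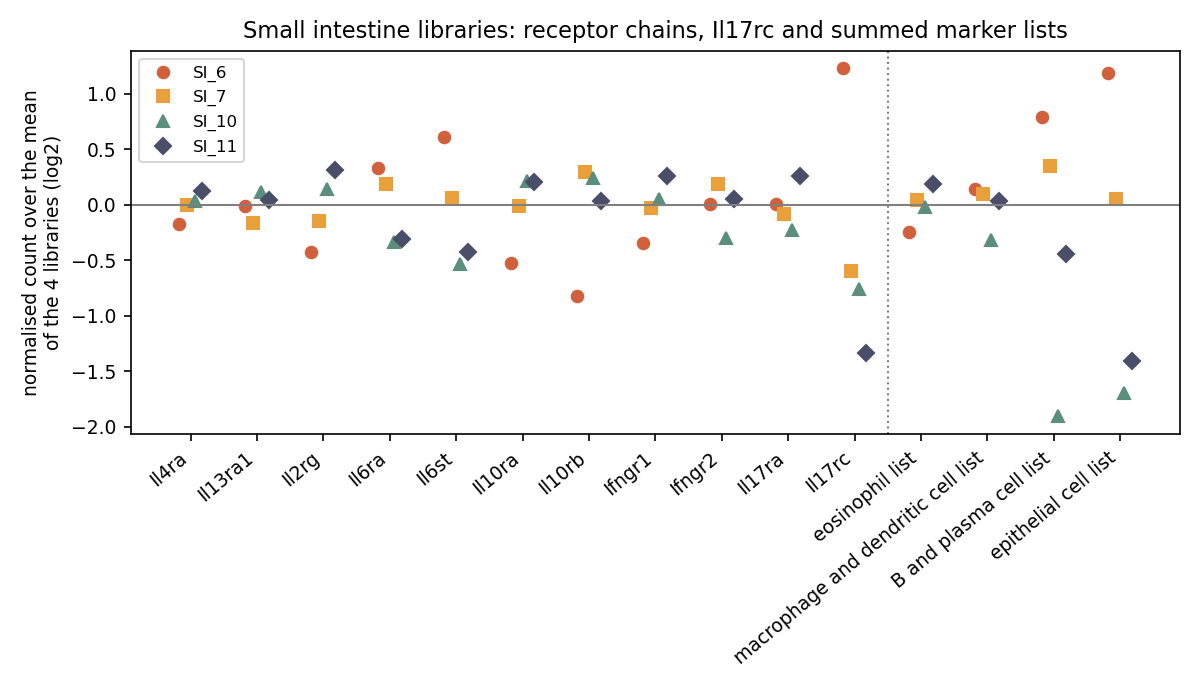
Normalised count in each small intestine library over the mean of the 4 (y axis, log2) for the 10 receptor chains, Il17rc and 4 summed marker lists (x axis). SI_6 lay at -0.82 for Il10rb and at 0.61 for Il6st, and at 1.19 for the epithelial list.

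Genes of the same pathways were read from 12 lists with 130 genes after the receptor chains were left out. Of these, 61 were higher in the small intestine, 17 were lower and 52 did not pass the test, with a median difference of 0.86. Beside them stood 22.0% higher and 12.9% lower among all genes. Among genes with a mean of 10 reads or more, 34.6% were higher and 28.6% lower. These shares also stand beside the counts of each list below, and no list was tested against them. The lower genes numbered 26 after quantile normalisation and 29 after centring on the median of all genes.

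Of the 8 ligands of the receptors, 4 were higher in the small intestine and none was lower. Il4 had 1.53, 3.91, 2.87 and 12.1 normalised counts in bone marrow and 332, 275, 417 and 514 in small intestine (log2 difference 5.66, limma adjusted p = 1.57e-05). Il6 had 2.30, 1.96, 0 and 1.86 in bone marrow and 506, 528, 1633 and 1361 in small intestine (7.78, limma adjusted p = 1.13e-05). Both cytokines were thus near 0 in bone marrow and well above it in each intestinal library. The means of Il6 and Il6st were both higher in small intestine, while that of Il6ra was lower. Among the intestinal libraries Il6 was lowest in SI_6, where Il6st was highest, and highest in SI_10, where Il6st was lowest. SI_6 also had the highest epithelial marker sum, and no relation between Il6 and Il6st was tested.

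Il10 rose from a mean of 2.75 to 26.8 normalised counts and Il13 from 0.23 to 9.71. Ifng averaged 0.70 and 1.54, Il17f 3.18 and 2.28, and neither was called. Il17a and Il25 had no read in any bone marrow library, averaged 1.24 and 2.46 in small intestine and were not called.

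The partner chains went both ways, in small lists, beside 34.6% higher and 28.6% lower among genes at 10 reads or more. Of the 6 partners of the common gamma chain none was higher and 3 were lower, among them Il21r (9.83-fold higher in bone marrow) and Il15ra (2.58-fold higher in bone marrow). Their list of 8 also held Il13ra2, which was not called, and Crlf2, which pairs with Il7r in the receptor for thymic stromal lymphopoietin and rose 2.65-fold. Of 6 gp130 partners and related chains, Lifr and Osmr, the receptors for leukaemia inhibitory factor and oncostatin M, were 13.5-fold and 10.02-fold higher, and Il11ra1 was 3.06-fold higher in bone marrow. Of 7 further class II chains, 2 were higher and 3 lower. Ifnar1, which lies near Il10rb and Ifngr2 in the class II receptor cluster and serves type I interferon, rose 4.52-fold. Il22ra1, the IL-22 receptor chain that pairs with Il10rb and is known from epithelium, had 139.7, 58.2, 39.4 and 28.4 normalised counts in SI_6, SI_7, SI_10 and SI_11, and Ifnlr1, which pairs with Il10rb for lambda interferon, was 6.40-fold higher in bone marrow. Of 4 other IL-17 receptor chains 3 were higher, with Il17rc and Il17rd changing most.

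The ligands of partner receptors included 7 higher and 2 lower genes of 19. Clcf1 and Osm, ligands that signal through gp130, averaged 14.98 and 30.9 normalised counts in bone marrow and 1001 and 657 in small intestine. Tslp was 9.42-fold and Il15 1.97-fold higher in bone marrow.

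Of 11 kinases and STAT factors 6 were higher and 1 was lower. Stat4 rose 8.98-fold and Jak2, which is bound to Ifngr2, 4.18-fold, while Jak3, the kinase bound to Il2rg, was 1.82-fold higher in bone marrow and so fell where its receptor chain rose. Stat6, the main transducer of IL-4 and IL-13, and Stat3, that of IL-6 and IL-10, were picked out after their values were seen. Stat6 rose 3.93-fold (limma adjusted p = 8.06e-05) and Stat3 rose 2.38-fold (limma adjusted p = 0.00124).

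Of 17 inhibitors and adaptors 6 were higher, led by Socs2 (478-fold) and Cish (104-fold), feedback inhibitors of cytokine receptors. The 2 lower genes were Adam10 (1.88-fold higher in bone marrow), a protease known to shed Il6ra, and Ptpn11 (1.84-fold higher in bone marrow), a phosphatase bound by gp130.

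The response genes were read cytokine by cytokine, and no difference between these small lists was tested. Of all genes 22.0% were higher and 12.9% lower, and at 10 reads or more 34.6% and 28.6%. Of 15 genes of the IL-4 and IL-13 response 9 were higher, among them the transglutaminase Tgm2 (58.4 to 84410.5 normalised counts) and the lipoxygenase Alox15 (159 to 19775), and 1 was lower, Chil3, at 31235 in bone marrow and 45.6 in small intestine. Chil3 was higher in the same libraries as the neutrophil precursor list, whose part in its difference was not tested. Of 12 genes of the IL-6 and IL-10 response 11 were higher, with Il1rn, the IL-1 receptor antagonist, at 90.2 and 29504 and Junb at 42.2 and 3633, and Cebpd was lower. Junb is also in the dissociation list. Of 19 genes of the interferon gamma response 8 were higher, 2 were lower and 9 did not pass the test. Cd274, which encodes PD-L1, rose from 145 to 34195 normalised counts and Cxcl10 from 58.0 to 2330.5, while Gbp3 and Irgm1 fell by 1.57 and 0.93 on the log2 scale. Of 11 genes of the IL-17 response 7 were higher, among them Cxcl2 (31.3 to 68026) and Il6, and Lcn2, which is also in the neutrophil precursor list, and Cebpd were lower. The lists share genes with each other, and the response genes answer to other signals too.

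**Figure D5:**
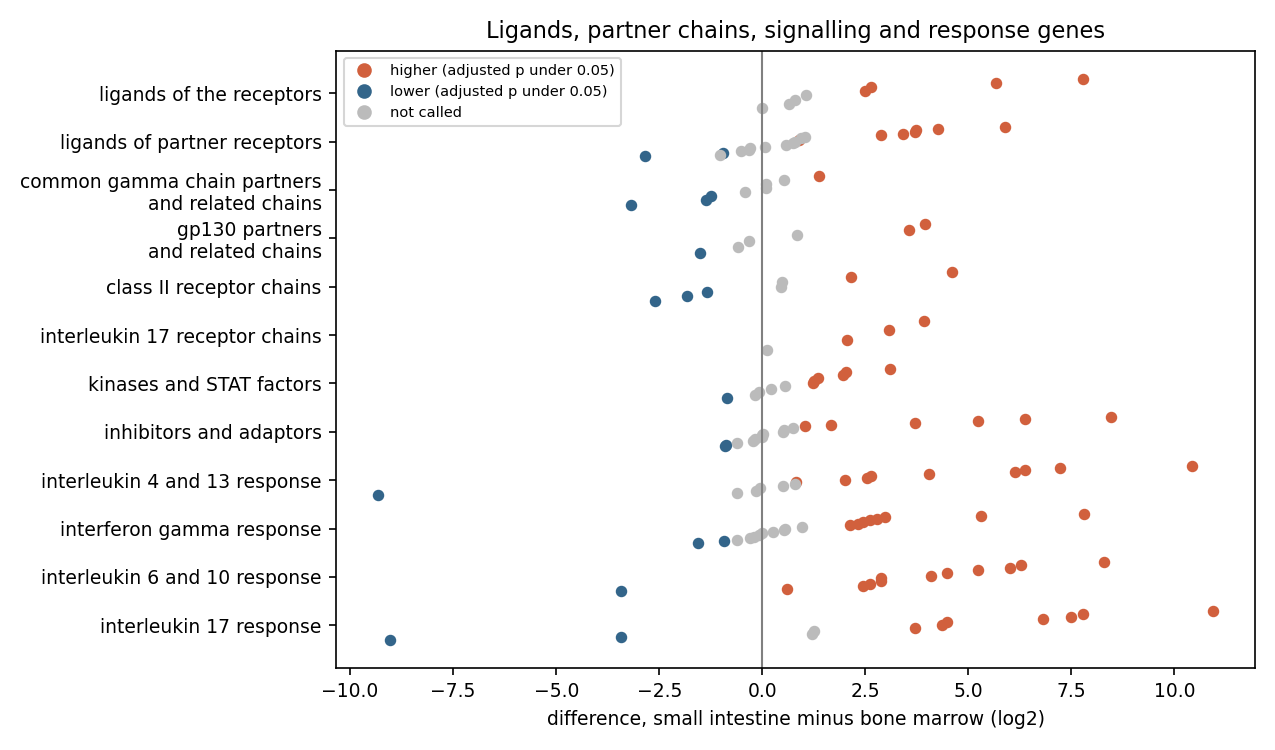
Difference of each pathway gene (x axis, log2, small intestine minus bone marrow) in 12 lists (y axis), coloured by whether it was higher, lower or not called by limma. The IL-6 and IL-10 response list has 11 of 12 genes higher, and the list of common gamma chain partners and related chains has 3 of 8 lower and 1 higher, Crlf2, which is no partner of that chain.

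Promoter sequences from RefSeq (GRCm38.p6), from 250 bases before to 50 bases after the start, were matched for 7 of the 10 chains and not for Il10ra, Il10rb and Il17ra. The palindromes TTCNNNGAA, which many STAT factors bind, and TTCNNNNGAA, preferred by Stat6, read the same on both strands and were searched because several chains rose together. TTCNNNGAA was found in 0 of the 7 and in 8.30% of all 32851 promoters, and TTCNNNNGAA in 1 of the 7 and in 6.95% of all. The match lay in the promoter of Ifngr2, 91 bases before the start, and is shown at chr16:91546958-91546987 on the plus strand, with the motif in capitals:
Ifngr2: ggggccgcggTTCCCGGGAAcaccggggaa
The number of CG dinucleotides in the 300 bases was 14 to 33 for 6 of the 7 chains and 3 for Il2rg, against a median of 7 over all promoters.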

How the data were processed

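RNA from cells sorted as eosinophils was measured in 8 libraries. The authors aligned single-end reads to GRCm38 with nf-core/rnaseq, counted them per gene and transformed the counts with DESeq2 (R 4.0.3 in the submitters' processing notes). The deposited values are on a log2-like scale with 1 lowest value, 0.93, for a count of 0. For the aligner and strand setting, nothing is given in the sources used here. Inverting the closed form of the transformation gave normalised counts, which times a size factor per library were whole reads for 100% of genes (within 0.05). No filter was applied. limma 3.58.1 (R 4.3.3; constant prior, tissue as the only term, 2-sided) was run on the deposited values and its script was tested on simulated data. Over all genes the script recovered 45 of 50 rises of 2 on the log2 scale and 12 of 50 rises of 1. It recovered 45 and 10 of 50 falls of the same sizes, and called 81 unchanged genes, 80 of them of low mean. Among genes at 10 reads or more, it recovered 50 and 38 rises and 50 and 42 falls, with 8 unchanged genes called. Chain balances were compared with an exact 2-sided permutation test. Levels per kb used exons of GENCODE M21, whose identifiers matched 38392 of the 38392 genes. The receptor chains and gene lists were chosen with earlier results of these data known. Named beside the chains were all their ligands, the 2 most raised and 2 most lowered called genes of each pathway list above 10 counts in a group, and leading or defining markers. Alternatives were other scalings, a trend, voom on the recovered reads, a filter of 10 reads and leaving out each library.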

Additional observations from a re-analysis of the deposited data

Results flagged for a closer look

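In each group of 4 libraries the gap between the highest or lowest deposited value and the next, over the whole range, was compared with Dixon's 95% critical value for 4 samples. It was exceeded in 8 of 184 groups, made of the named genes, the chain balances and the summed marker lists in each tissue, where chance gives about 1 in 20, or 9.2, and no receptor chain was among them. In small intestine, SI_6 lay below the other libraries for Ifnar1 (ratio 0.927) and for Alox15 (0.866), and SI_11 lay above them for Il13 (0.896). In bone marrow, BM_4 lay below the others for Il6 (0.907, at 0 reads) and for Junb (0.860). The ratio was 1 for Il13 and Ifng in BM_5 and for Il22ra1 in BM_3, because the other 3 bone marrow libraries had 0 reads.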

How the results depend on the processing

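The counts of 7 higher and 2 lower receptor chains were the same under the filter on low values, the trend, quantile normalisation, voom, centring on the median of genes above the filter and leaving out each library. Il13ra1, Il2rg, Il6ra, Il10ra, Il10rb and Il17ra were called under 14 of 14 alternatives, and Il4ra, Il6st and Ifngr2 under 13. Centring on the median of all genes, an alternative chosen after seeing the data, moved the median of all genes from 0.37 to -0.53. It left 4 chains higher, with Il4ra, Il6st and Ifngr2 lost, and over all genes 4285 higher and 10216 lower in place of 8465 and 4937. Lower pathway genes numbered 29 there and 26 after quantile normalisation, against 17. Ifngr1 changed sign to -0.69 and -0.31 under these 2 settings. Centring on all genes also turned Ifng (-0.25), Il17a (-0.12) and Tagln (-0.17). Il17f, with few reads, ranged from -0.48 to 0.26 as single libraries were left out, above 0 without BM_3, BM_5, SI_11 or SI_7, and was 0.17 with voom. The causes were not tested. Of 76 named genes 61 kept their direction and side under every alternative. Leaving out single libraries changed the direction or call of none of the 6 chain balances. No paired analysis was possible because the groups share no replicate number, in the labels or in the column names. Depth limits Il13ra1 in bone marrow, with 0 to 10 reads, and the ligands at or near 0.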
